A study of Homo sapiens with 24 samples.

Results

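The comparison is that of E7107 with DMSO in Y36C PHF5A cells, taken as all rows of the junction tables of the 6 samples titled with E7107 and Y36C and the 6 titled with DMSO and Y36C, which are 12 of the 24 samples of the series. E7107 is a pladienolide derivative that inhibits splicing through the SF3b complex, and the comparison asks what the compound still changes when its binding partner carries the Y36C substitution. The cells are HCT116, a human colorectal cancer line, in which WT or Y36C PHF5A was overexpressed on top of the endogenous gene, so both genotypes keep their own PHF5A. Cells were exposed to DMSO or E7107 for 6 h with 6 samples per group. The labels give no E7107 dose. The paper's results name 100 nM for the RNA-seq, and its methods name 100 nM and 10 μM. The WT pair (6 DMSO and 6 E7107 samples) is used only to place single values.

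SF3b is the part of the U2 small nuclear ribonucleoprotein (snRNP) that holds the branch point adenosine of the intron, and PHF5A and SF3B1 line the pocket in which this adenosine sits. When the branch point of an intron is not recognised, the intron can stay in the RNA (intron retention, IR) or the spliceosome can join the upstream 5′ splice site to a later 3′ splice site, which leaves out an exon (exon skipping, ES). A minor class of introns, the U12-type, is removed by a separate spliceosome that also contains SF3b.

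The deposited value is the percent spliced in (PSI): the share, in percent, of the reads at a splice site that belong to a given junction, where reads that run unspliced across the exon–intron boundary count as a junction of their own. A boundary PSI therefore reads IR, and PSI values at a site add up to 100, so that a rise of a boundary or of a skipping junction is a fall of the junctions beside it. A rise can come from more retained RNA or from less spliced RNA, which cannot be told apart here. The number of reads behind a PSI is unknown, and the tables show depth only through how many sites were covered, 336249 to 338547 per Y36C DMSO sample and 328458 to 331604 per Y36C E7107 sample. The WT E7107 samples covered fewer, 281164 to 283548, against 337517 to 340081 in WT DMSO. Reads were found at the splice sites of the epithelial markers EPCAM, CDH1, KRT8, KRT18, KRT19 and CLDN4 in all 12 samples. No annotated splice site of PTPRC, CD3E or PECAM1 is listed, the 1 listed site of ALB had no reads, and COL1A1, a gene of fibroblasts, had reads at 95 to 96 of its 96 listed sites. The tables hold no variant, so the genotype could not be read from them. None of the 11 junctions of PHF5A that were tested passed (smallest limma adjusted p = 0.216), and none of 20 boundaries of SF3B1 passed. The introduced PHF5A was a cDNA and, by the paper, most PHF5A mRNA of the Y36C cells came from it. Its reads count as spliced, so a response of the endogenous PHF5A transcript could be hidden.

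E7107 moved splicing in Y36C cells at many sites, and the direction depended on the class of junction. Boundaries and exon-skipping junctions rose and ordinary annotated junctions fell. Of 240177 junctions tested with limma after a natural-log odds transform (offset of 1 point to PSI and to its remainder), 35551 (14.8%) increased and 33885 (14.1%) decreased at an adjusted p of 0.05 or less. Among the 87156 boundaries, 23375 increased, which is 26.8%, and 1094 decreased, which is 1.26%. Among the 19037 exon-skipping junctions, 8615 increased, which is 45.3%, and 726 decreased, which is 3.81%. The 126138 annotated junctions that skip no exon went the other way, with 2479 (1.97%) increased and 31424 (24.9%) decreased. The median rise was 9.32 points at the increased boundaries and 6.58 points at the increased exon-skipping junctions. A rise of at least 30 points was reached at 1445 boundaries and 297 exon-skipping junctions.

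**Figure D1:**
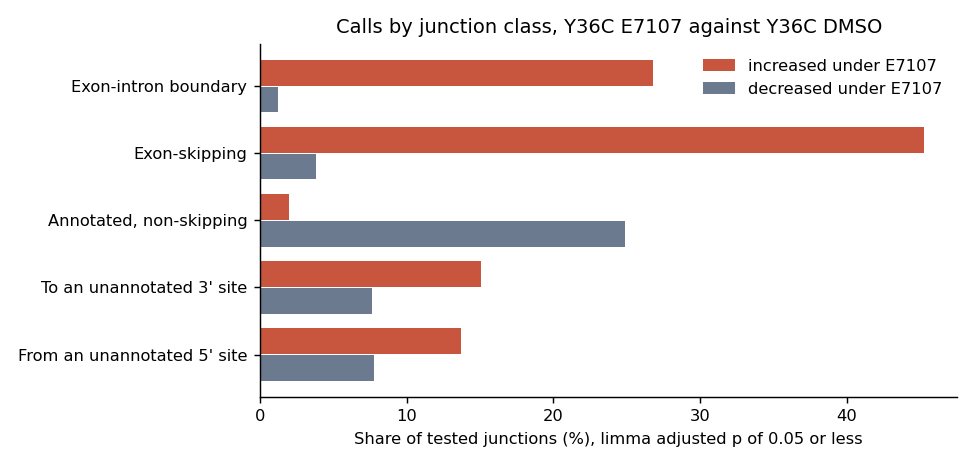
Share of tested junctions (%) that increased (red) or decreased (grey) under E7107 in Y36C cells, by junction class, from the limma test of 6 against 6 samples. The exon-skipping class has the highest share of increases (45.3%) and the annotated non-skipping class the highest share of decreases (24.9%).

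Averaged over all 241797 boundaries with reads at the site in the 12 samples, the mean PSI was 7.98% ± 0.125 (SD, n = 6) in DMSO and 10.2% ± 0.130 (SD, n = 6) in E7107 (exact permutation test, two-sided, p = 0.002165, the smallest that 924 splits allow). The 6 DMSO samples lay between 7.80% and 8.11% and the 6 E7107 samples between 10.06% and 10.39%, without overlap. Over 222570 exon-skipping rows the mean was 2.81% ± 0.00761 (SD, n = 6) in DMSO and 4.04% ± 0.0330 (SD, n = 6) in E7107 (exact permutation test, p = 0.002165), with ranges of 2.80% to 2.82% and 4.00% to 4.08%. These 2 values are the first of 13 that were compared in this way, and all but 1 gave the smallest p, which is 0.002345 after Benjamini–Hochberg adjustment over the 13.

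**Figure D2:**
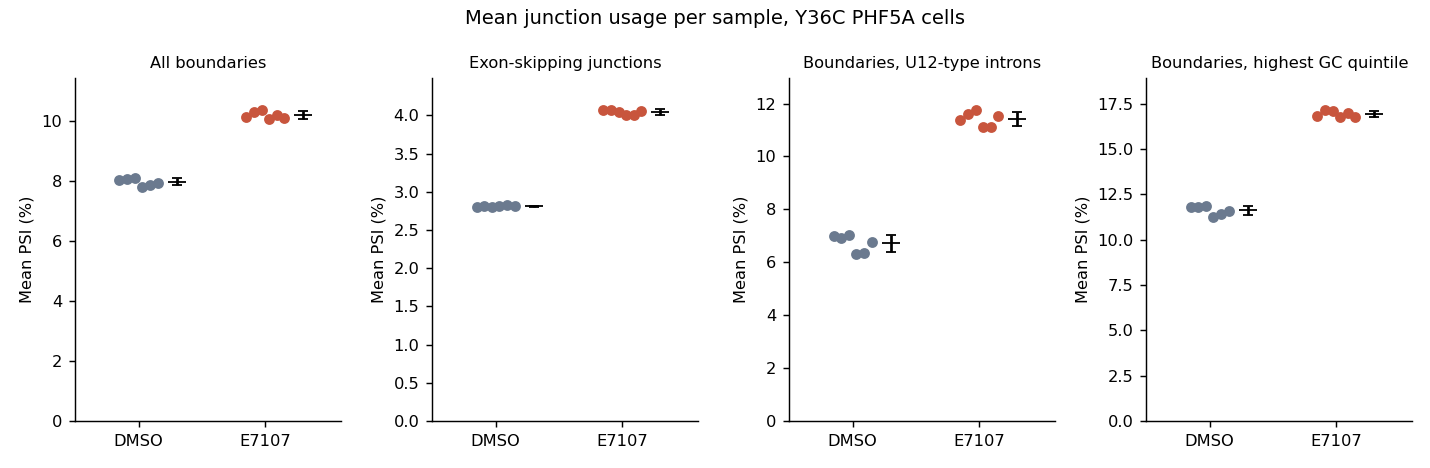
Mean PSI (%) of each of the 12 Y36C samples, DMSO in grey and E7107 in red, with the group mean and SD in black, over all boundaries, exon-skipping junctions, boundaries of U12-type introns and boundaries of introns in the highest GC quintile. In each panel the 6 E7107 samples lie above the 6 DMSO samples.

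Retention was taken as called for an annotated intron when both of its boundaries increased. This held for 7472 of 38951 introns with both boundaries tested (19.2%), and both boundaries decreased at 89 (0.228%). A further 8355 introns increased at 1 boundary only, and 56 had boundaries called in opposite directions. The 5′ and 3′ boundaries behaved alike, with 28.6% and 26.9% increased. In the retained introns the median PSI, averaged over both boundaries, went from 6.00% in DMSO to 18.8% in E7107, and 463 introns rose by at least 30 points. The boundary bases of many introns lie inside another annotated exon of the gene, as in transcripts that keep the intron. Where they did not, 20.4% of introns were retained, against 18.4% where they did.

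The strongest retained introns were short and rich in G and C. They were taken as the 8 with the largest mean rise whose groups did not overlap and whose SD was at most 5 points, 1 per protein-coding gene. ASPSCR1, which tethers glucose transporter vesicles, led them at its intron 13 of 15 (272 bases, 66.9% GC, chr17:79974404-79974675). Its 5′ boundary PSI ran from 6.45% over a median of 11% to 15.5% in DMSO and from 53.4% over 59.5% to 64.7% in E7107 (change in log odds 2.41 ± 0.158 SE, limma adjusted p = 2.45e-06). The 3′ boundary went from 4.92–15.5% to 50–62.5%. In WT cells the same 5′ boundary stood at 11.9% ± 7.92 (SD, n = 6) in DMSO and 11.4% ± 6.19 (SD, n = 6) in E7107. The ASPSCR1 intron was thus a minority of the reads in 3 of the 4 groups on average and was kept in more than 50% of the reads at its 5′ site only in the group with Y36C and E7107.

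FASTK, a regulator of mitochondrial RNA, showed the same order of groups at its intron 5 of 9 (98 bases, 73.5% GC). The 5′ boundary ran from 17.9% over 23.6% to 28.8% in DMSO and from 57.0% over 61.8% to 70.1% in E7107, while the WT means were 25.9% ± 5.44 and 25.1% ± 3.64 (SD, n = 6 each). MED15, a subunit of the Mediator complex, differed from both, since its 85-base intron 15 of 17 (71.8% GC) was retained in the 2 genotypes. In Y36C cells its 5′ boundary rose from 7.35–17.2% (median 15.2%) to 49.1–58.3% (median 56.2%), and in WT cells from a mean of 7.32% to 63.5%. YDJC, which encodes a protein related to sugar deacetylases, behaved like MED15 at intron 1 of 4 (89 bases, 76.4% GC), with 22.0–32.6% in DMSO, 62.6–68.9% in E7107 and a WT mean of 83.4% under E7107.

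The introns of MED15, YDJC and CDK9 are shown whole to let their length and composition be seen. They are written 5′ to 3′ from the GRCh37 sequence with 10 exonic bases on either side, and capitals mark the first 6 and the last 3 bases of the intron.
MED15, chr22:20939293-20939397, plus strand: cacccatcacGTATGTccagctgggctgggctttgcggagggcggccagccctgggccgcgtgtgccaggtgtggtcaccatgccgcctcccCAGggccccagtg
YDJC, chr22:21984041-21984149, minus strand: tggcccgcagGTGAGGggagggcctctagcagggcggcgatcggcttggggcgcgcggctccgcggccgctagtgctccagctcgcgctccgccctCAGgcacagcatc
CDK9, chr9:130550655-130550832, plus strand: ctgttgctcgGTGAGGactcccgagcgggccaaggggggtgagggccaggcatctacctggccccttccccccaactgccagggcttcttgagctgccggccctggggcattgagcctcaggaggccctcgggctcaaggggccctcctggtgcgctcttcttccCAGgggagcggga
The CDK9 intron is number 5 of 6 and comes back below with the gene groups.

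The other 4 of the 8 introns were in TONSL (replication fork repair), RECQL4 (a RecQ helicase), METTL2A (a tRNA methyltransferase) and GNG5 (a G protein γ subunit). The 5′ boundary of TONSL intron 14 of 25 rose from 23.1–31.4% to 67.0–75.4% and that of RECQL4 intron 4 of 21 from 20.2–31.7% to 57.6–67.6%. METTL2A rose from 28.8–41.9% to 69.3–76.3%, a value that is uncertain because the gene has a near-identical copy, METTL2B. GNG5 rose from 13.9–22.8% to 51.8–62.7%. No pair of groups overlapped at either boundary of the 8 introns, which the choice required, and their lengths ran from 85 to 285 bases.

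**Figure D3:**
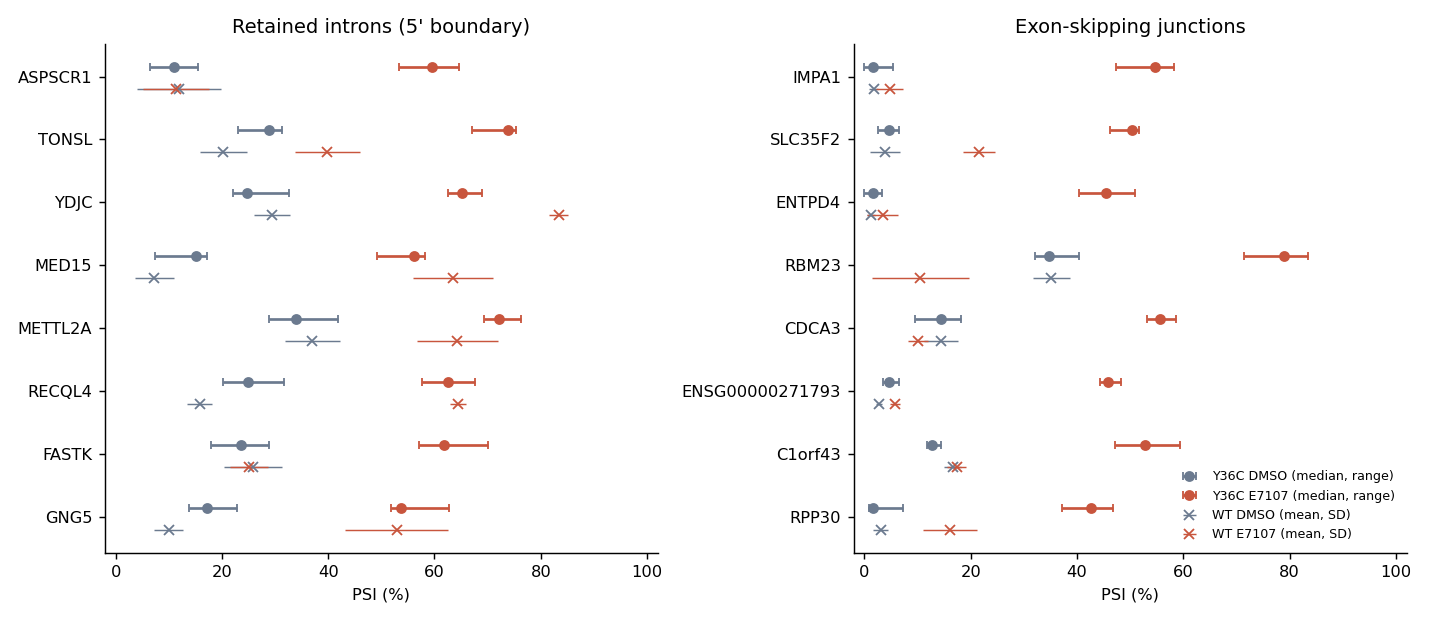
PSI (%) of the 8 named retained introns at their 5′ boundary (left) and of the 8 named exon-skipping junctions (right). Circles and bars give the median and the range of 6 Y36C samples, crosses and bars the mean and SD of 6 WT samples, grey for DMSO and red for E7107. ASPSCR1 and FASTK in the left panel and IMPA1, ENTPD4, CDCA3, ENSG00000271793 and C1orf43 in the right panel show WT means under E7107 within 5 points of WT DMSO.

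Retention rose with the GC content of the intron and fell with its length. In protein-coding genes, 7137 of 36610 introns (19.5%) were retained. By quintile of intron GC content the share climbed from 11.2% (up to 40.1% GC) over 12.5%, 17.3% and 21.6% to 34.9% (over 61.8% GC), and the median change in log odds from 0.27 to 0.64. By length the share dropped from 36.9% at up to 110 bases to 4.90% over 10000 bases. GC-rich introns are also the shorter ones, with a median of 206 bases in the top quintile and 1402 in the bottom quintile. Within introns of up to 110 bases the share still ran from 15.6% in the bottom to 44.3% in the top GC quintile. Within introns of over 1000 and up to 3000 bases it ran from 11.4% to 17.1%. The order did not hold in introns of over 3000 and up to 10000 bases, where the share was 7.05% in the bottom, 13.4% in the fourth and 7.38% in the top quintile (122 introns).

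The strength of the 3′ splice site went with retention and that of the 5′ splice site did not. Each site was scored by its match to the base frequencies of annotated sites, over 20 intronic and 3 exonic bases at the 3′ end and over 3 exonic and 6 intronic bases at the 5′ end. From the weakest to the strongest quintile of the 3′ score the retained share fell from 27.7% over 23.7%, 19.8% and 15.3% to 11%. By the 5′ score it stayed between 18.4% and 21.6%. The 3′ score also falls with GC content, but the difference remained inside GC quintiles, at 40.3% against 20.4% in the top quintile and 13.5% against 9.90% in the bottom quintile. The branch point letters CTAAC, searched on the transcribed strand in the last 50 bases of the intron, were in 1.96% of retained introns and 3.91% of the others (3.53% of all). TTAAC was in 2.75% and 5.36%, and CTGAC in 11.6% and 10.7%. Internal introns were retained more often (25%) than first (17.3%) or last (17.4%) introns.

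**Figure D4:**
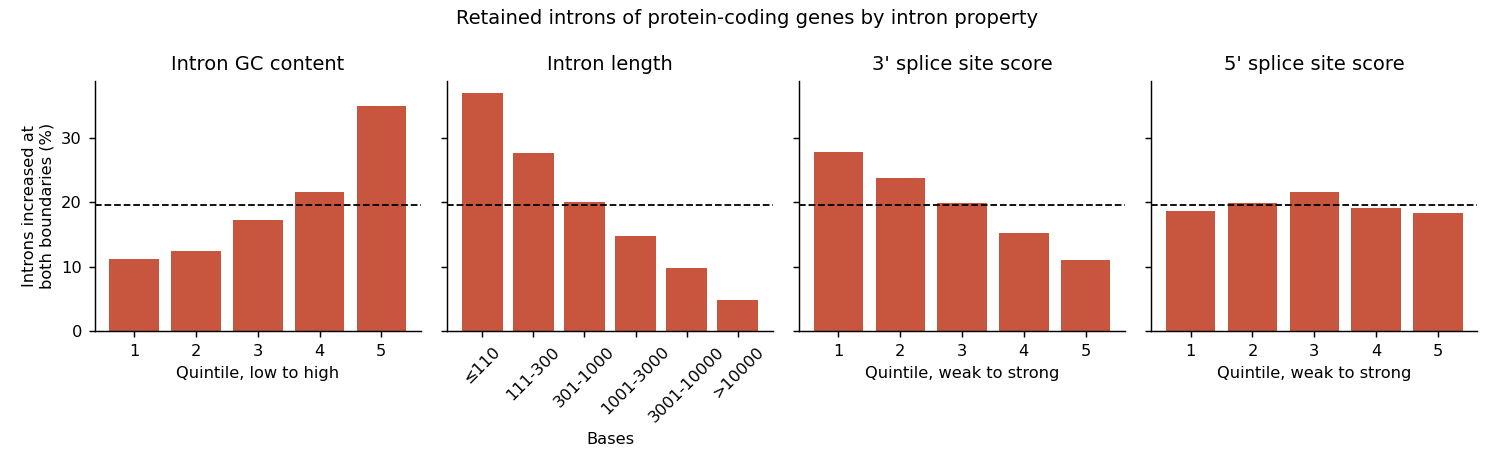
Share (%) of introns of protein-coding genes with both boundaries increased under E7107 in Y36C cells, by quintile of intron GC content, by length in bases, and by quintile of the 3′ and 5′ splice site scores. The dashed line is the share over all such introns (19.5%). The share rises with GC content, falls with length and 3′ score, and stays between 18.4% and 21.6% across the 5′ score.

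The same contrasts were tested over samples, with each sample's mean boundary PSI as its value. Boundaries of the top GC quintile rose from 11.63% ± 0.240 to 16.94% ± 0.180, and those of the bottom quintile from 4.03% ± 0.0692 to 5.08% ± 0.108 (SD, n = 6 each). The gap between the quintiles widened by 4.27 points (exact permutation test, p = 0.002165, adjusted p = 0.002345). Introns of up to 110 bases rose from 8.93% ± 0.168 to 13.38% ± 0.204 and those over 10000 bases from 4.38% ± 0.0811 to 5.32% ± 0.0577 (SD, n = 6 each), so that this gap widened by 3.51 points (exact permutation test, p = 0.002165). In every one of these contrasts the 6 E7107 samples lay beyond the 6 DMSO samples. Composition also affects how well RNA is sequenced and mapped, and its part in these values was not tested.

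U12-type introns, recognised here by the first 8 bases ATATCCTT or GTATCCTT, responded more than the rest. Of 221 tested in protein-coding genes, 71 (32.1%) were retained and 0 decreased at both boundaries, against 7066 (19.4%) retained and 74 decreased of 36389 others, all by the limma test. At 1250 bases and 43.9% GC the median U12-type intron was neither short nor GC-rich. AT–AC and GT–AG introns of this type had like shares (32.2% of 59 and 32.3% of 161). Over samples, the mean boundary PSI of U12-type introns rose from 6.72% ± 0.321 to 11.42% ± 0.274 and that of the others from 6.47% ± 0.126 to 8.65% ± 0.125 (SD, n = 6 each). The difference between the types widened by 2.51 points (exact permutation test, p = 0.002165, adjusted p = 0.002345).

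The 4 U12-type introns with the largest rise lay in SRSF10 (a splicing regulator of the SR family), TMEM41B (a membrane protein of the endoplasmic reticulum), GNL3 (nucleostemin) and NOL11 (a ribosome biogenesis factor). Their 5′ ends are given with 10 exonic bases, 20 intronic bases and the 8 defining bases in capitals.
SRSF10, chr1:24305183-24305212, minus strand: cttatgttcaATATCCTTtcttcagatggc
TMEM41B, chr11:9316786-9316815, minus strand: catatattttGTATCCTTttaactgaaaaa
GNL3, chr3:52724711-52724740, plus strand: gataaccaagGTATCCTTtattagtggtaa
NOL11, chr17:65734462-65734491, plus strand: cagctctactGTATCCTTtgacatagagca
The SRSF10 intron, number 2 of 5, rose at its 5′ boundary from 11.2% over 12.6% to 15.4% in DMSO to 29.9% over 31.7% to 34.6% in E7107, and the WT means were 10.9% and 32.2%. GNL3 (intron 7 of 14) rose from 7.36–10.3% to 16.3–21.3% in Y36C cells, far less than in WT cells, where the means were 6.25% and 73.1%. NOL11 (intron 14 of 17) rose from 1.43–4.65% to 8.90–18.1%, and TMEM41B (intron 3 of 6) from 3.49–13.3% to 14.3–27.3%, the closest of the 4 to an overlap.

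The share of increased exon-skipping junctions depends in part on which junctions could be tested, since reads of a junction had to be present throughout the 6 samples of DMSO, of E7107 or of both. Of the 19037 tested, 7427 entered through E7107 alone, a choice that favours increases, and by limma 66.9% of these increased and 0 decreased. Of the 9745 that passed in both groups, 3649 (37.4%) increased and 471 (4.83%) decreased, beside 27.4% and 1.23% of the 57614 boundaries that passed in both. The 8 strongest, chosen as above, were led by IMPA1 (inositol monophosphatase), whose skipping junction went from 0 to 5.38% (median 1.59%) in DMSO to 47.4–58.2% (median 54.7%) in E7107 (change in log odds 3.83 ± 0.279 SE, limma adjusted p = 4.76e-06). WT cells stood at 1.80% and 4.79%. ENTPD4, a Golgi nucleoside diphosphatase, was alike, with 0 to 3.23% in DMSO, 40.3–50.9% in E7107 and 3.43% in WT cells under E7107. The IMPA1 and ENTPD4 junctions had a DMSO PSI down to 0, so they entered the test through E7107 alone. SLC35F2, a solute carrier of the plasma membrane, rose from 2.53–6.51% to 46.2–51.7%, and in WT cells to 21.6% ± 3.06 (SD, n = 6).

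RBM23, an RNA-binding protein related to the splicing factor RBM39, had a higher value under E7107 in Y36C cells and a lower one in WT cells. The junction that leaves out its 54-base exon rose from 32.1% over 34.8% to 40.4% in Y36C DMSO to 71.4% over 78.9% to 83.4% in Y36C E7107 (change in log odds 1.85 ± 0.139 SE, limma adjusted p = 5.75e-06). In WT cells the means were 35.2% ± 3.49 in DMSO and 10.5% ± 9.15 in E7107 (SD, n = 6 each). CDCA3, which promotes entry into mitosis, rose from 9.55–18.2% to 53.2–58.6%, with WT means of 14.4% and 10.1%. C1orf43 rose from 11.8–14.4% to 47.1–59.3% by leaving out a 54-base exon, with WT means of 16.6% and 17.4%. RPP30, a subunit of ribonuclease P, rose from 0.926–7.20% to 37.2–46.8% at a 30-base exon. The last of the 8 is annotated to ENSG00000271793 and shares its junction with the snoRNA host gene SNHG5, so that the gene is uncertain. It rose from 3.49–6.46% to 44.4–48.3%.

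The skipped exons are shown with the end of the intron before them, where the branch point and the 3′ splice site lie. Each sequence has 50 intronic bases, the exon in capitals and 10 intronic bases, read 5′ to 3′ from GRCh37.
RBM23, chr14:23374805-23374918, minus strand: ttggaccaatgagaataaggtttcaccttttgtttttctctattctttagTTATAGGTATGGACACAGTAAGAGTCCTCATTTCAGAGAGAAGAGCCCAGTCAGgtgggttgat
C1orf43, chr1:154186359-154186472, minus strand: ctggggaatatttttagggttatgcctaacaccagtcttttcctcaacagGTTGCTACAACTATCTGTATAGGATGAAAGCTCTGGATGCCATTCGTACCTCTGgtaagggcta
RPP30, chr10:92655161-92655250, plus strand: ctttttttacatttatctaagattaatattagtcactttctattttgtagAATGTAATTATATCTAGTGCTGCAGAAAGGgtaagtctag
SLC35F2, chr11:107676075-107676291, minus strand: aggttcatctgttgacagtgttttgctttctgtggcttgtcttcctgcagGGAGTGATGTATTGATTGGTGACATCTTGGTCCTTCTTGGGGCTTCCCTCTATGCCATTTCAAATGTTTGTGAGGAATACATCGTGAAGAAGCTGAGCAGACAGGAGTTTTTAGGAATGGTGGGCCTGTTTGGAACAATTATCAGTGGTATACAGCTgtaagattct
LARS1, chr5:145532727-145532840, minus strand: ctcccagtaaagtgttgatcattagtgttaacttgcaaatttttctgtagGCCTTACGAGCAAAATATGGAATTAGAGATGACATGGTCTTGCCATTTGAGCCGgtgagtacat
NUP58, chr13:25893414-25893498, plus strand: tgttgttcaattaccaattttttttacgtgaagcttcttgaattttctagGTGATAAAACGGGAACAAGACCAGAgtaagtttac
LARS1 and NUP58 are described with their gene groups.

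Skipped exons were shorter than other tested exons. Some of the skipping junctions entered the test through E7107 alone, which favours increases, and the exon values below were not split by that. Over single annotated exons, 6120 of 12216 were skipped more under E7107, with a median length of 96 bases against 117 for the 5712 that were not called. The increased share was highest for exons of 41 to 80 bases, 62.2%, and fell with length to 30.9% over 250 bases, while exons of up to 40 bases stood at 51.9%. Of the 5586 increased exons within coding sequence, 45.9% had a length divisible by 3, against 51.9% of the 4468 not called and 67.0% of the 197 decreased. The introns before increased exons had a median of 43.8% GC against 44.4% for the exons not called, and were shorter, with a median of 1648 against 2226 bases. The introns after them had a median of 1631.5 against 2026 bases. The median 3′ splice site score of the exon was 9.25 against 9.16.

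Where exon skipping increased, boundaries increased more often both at the skipped exon and at the exons beside it. The boundary at its 3′ site increased in 39.3% of 3003 cases and that at its 5′ site in 38% of 2775. Around exons whose skipping was not called, the shares were 27.5% and 26.1%. At the 5′ site of the exon before, the shares were 36.1% against 26.0%, and at the 3′ site of the exon after, 31.1% against 20.1%. These shares, and the counts per gene below, were not split by the group through which a skipping junction entered the test. Both can occur at 1 site in the same cells, since the tables sum all transcripts of a gene. Per gene, 2813 of 7196 protein-coding genes (39.1%) had at least 1 retained intron and 4512 of 6966 (64.8%) at least 1 increased exon-skipping junction. Of 5295 genes in which the 2 kinds could be tested, 1794 showed both, which is 76.4% of those with a retained intron and 48.9% of those with increased skipping, where 69.3% and 44.3% of the 5295 showed each kind. Genes with more tested junctions have more chances at either. LAMA5, a laminin chain, had the most retained introns (30 of 47), followed by FASN, the fatty acid synthase, with 26 of 39, INTS11, the Integrator endonuclease, with 19 of 26, and NBEAL2 and WDR90 with 19 each. The median GC content of their introns was 62.5% to 69.7%. FANCA had the most increased skipping junctions, 11 of 16.

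Junctions at splice sites that no transcript in the annotation uses increased less often than boundaries or exon-skipping junctions, at shares near the 14.8% of all junctions. They decreased less often than all junctions (14.1%). Of 3840 junctions to an unannotated 3′ site, 581 (15.1%) increased and 294 (7.66%) decreased, and of 3060 from an unannotated 5′ site, 418 (13.7%) increased and 238 (7.78%) decreased. Some of these junctions entered the limma test through E7107 alone, which favours increases, and the shares were not split by that. By distance to the annotated 3′ site, the increased share was 20.5% of 425 sites 4 to 50 bases upstream and 8.12% of 677 sites 4 to 50 bases downstream. Farther away, at 51 or more bases, it was 20.3% of 1675 upstream and 14.4% of 619 downstream sites. At sites within 3 bases 10 of 444 increased, a share of 2.25%. Mean PSI over all rows of these classes moved little, from 1.038% ± 0.00775 to 1.057% ± 0.00997 for 3′ sites (SD, n = 6 each, exact permutation test, p = 0.008658, adjusted p = 0.008658 over 13) and from 1.396% ± 0.00501 to 1.438% ± 0.0131 for 5′ sites (exact permutation test, p = 0.002165, adjusted p = 0.002345).

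Among unannotated sites whose groups did not overlap and whose SD was at most 5 points, the largest rise was in KDM1B, a histone demethylase, in which a 5′ site 2236 bases downstream of the annotated one joined the next 3′ site. Its PSI was 0 in 5 of 6 Y36C DMSO samples and 2.04% in the other, and 26.7–40.4% (median 36.8%) in E7107 (change in log odds 3.85 ± 0.211 SE, limma adjusted p = 9.88e-07). WT cells stayed at 0.555% and 0.913%. Among unannotated 3′ sites, TTLL4, a tubulin polyglutamylase, gained one 93 bases upstream (0 to 4.62% in DMSO, 12.5–26.5% in E7107). AHCYL1, a regulator of calcium release, gained one 176 bases upstream (2.83–6.90% to 13.1–27.1%). BUB1B, the spindle checkpoint kinase, gained one 15 bases upstream (7.66–10.5% to 19.9–29.4%), and the ubiquitin ligase CBLC one 97 bases upstream (4.55–17.6% to 24.3–32.7%). The other unannotated 5′ sites were in BANP (4.65–14.0% to 21.2–34.0%), the transcription factor RFX1 (0 to 11.8% against 15.4–26.8%) and C11orf80 (0 to 5.56% against 7.69–20%). The sites in KDM1B, TTLL4, RFX1 and C11orf80 had a DMSO PSI down to 0, so they entered the test through E7107 alone.

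The sites themselves are shown for comparison with annotated ones. The 3′ sites have 50 intronic and 10 exonic bases with the last 3 intronic bases in capitals, and the KDM1B 5′ site has 10 exonic and 20 intronic bases with the first 6 intronic bases in capitals.
BUB1B, chr15:40494541-40494600, plus strand: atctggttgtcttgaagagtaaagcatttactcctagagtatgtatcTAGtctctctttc
TTLL4, chr2:219616284-219616343, plus strand: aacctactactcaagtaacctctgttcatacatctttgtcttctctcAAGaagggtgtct
AHCYL1, chr1:110561447-110561506, plus strand: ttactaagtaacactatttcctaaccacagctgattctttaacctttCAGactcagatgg
KDM1B, chr6:18168836-18168865, plus strand: caattcttggGTATGTacctagaaatataa

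A small set of introns had lower boundary PSI under E7107. Both boundaries fell at 89 introns, and among those with an SD of at most 5 points the largest falls were in ANKRD10, SAT1, PRPF39 and HNRNPDL. ANKRD10, an ankyrin repeat protein, fell at the 5′ boundary of intron 3 of 5 from 48.6–54.0% (median 51%) to 25.7–31.6% (median 28.9%), with WT means of 51.9% and 46.2%. SAT1, the spermidine/spermine acetyltransferase, fell at intron 3 of 5 from 31.8–40.8% to 13.6–17.4%, with WT means of 34.4% and 35.9%. PRPF39, a U1 snRNP-associated factor, fell at intron 8 of 13 from 14.8–20% to 5.53–13.1%, with WT means of 17.6% and 29.0%. HNRNPDL, an RNA-binding protein that regulates its own splicing, fell at intron 7 of 7 from 17.5–21.5% to 6.19–8.95%. These 4 introns had 33.1% to 40.4% GC. Of the 74 protein-coding introns that fell, 42 were in the bottom GC quintile.

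Genes that the study followed by name varied. MCL1, an anti-apoptotic BCL2 protein, changed little in Y36C cells. Its exon-skipping junction rose from 0.272–1.66% to 1.58–4.16% (change in log odds 0.81 ± 0.176 SE, limma adjusted p = 0.00563) and its 3′ boundary from 1.59–3.72% to 3.41–7.67% (0.54 ± 0.152 SE, adjusted p = 0.0213), with groups that overlapped at either. These events did not meet the naming rule and are given after their values were seen. MCL1 had WT means under E7107 of 33.3% and 89.6%. From read plots and TaqMan assays, the paper describes mainly exon skipping of MCL1 in Y36C cells under E7107. The skipping PSI here was lower in Y36C (mean 2.89%) than in WT cells, and what the different measures add to this was not tested. For the genes the study followed no limit on the SD was set, and the E7107 SD reached 13.9 points at the RBM5 3′ boundary. RBM5, a splicing regulator, gained skipping of a 61-base exon from 6.33–13.2% to 52.9–75%, against WT means of 12.2% and 18.2%, and its 3′ boundary rose from 7.32–18.1% to 33.3–67.7%.

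CDC25B, a phosphatase that activates CDKs, rose at 17 of 29 boundaries. The 5′ boundary with the largest change went from 9.55–17.5% to 46.4–62.7% and its skipping junction from 0–0.673% to 7.51–10.5%. That skipping junction entered the test through E7107 alone. CDK10 rose at 13 of 29 boundaries and fell at 2, with skipping up from 8.86–18.5% to 36.6–42.0%. EIF4A1, a translation initiation helicase, had none of 9 junctions called.

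Across gene groups, shares of increased boundaries and exon-skipping junctions are read beside those of all protein-coding genes, 28.2% of 77645 annotated boundaries (median change in log odds 0.40) and 45.8% of 17938 exon-skipping junctions (median 0.63). The cleavage and polyadenylation factors had the highest share of increased boundaries, 108 of 267 (40.4%, median 0.56). Next were the aminoacyl-tRNA synthetases with 123 of 368 (33.4%), although their median of 0.35 was below that of all genes. The cytosolic ribosomal proteins had the lowest, 94 of 808 (11.6%, median 0.05), and SR proteins (19 of 147, 12.9%), glycolysis (33 of 247, 13.4%), SF3a and SF3b subunits (22 of 160, 13.8%) and respiratory complex I (33 of 206, 16%) were also low. Exon skipping was increased most often in proteasome subunits (52 of 82, 63.4%), cyclins, CDKs and CDC25 phosphatases (53 of 85, 62.4%) and kinetochore and spindle genes (60 of 104, 57.7%). The median changes of these groups were 0.55, 0.81 and 0.9, so that the proteasome subunits lay below all genes by this measure. Increases were least frequent in ribosomal proteins (30 of 118, 25.4%) and glycolysis (11 of 40, 27.5%). In the SF3a and SF3b subunits 14 of 26 skipping junctions increased (53.8%), with a median change of 0.45, also below that of all genes. Of the boundaries of SR proteins 13 (8.84%) decreased, against 1.15% over all genes. Boundaries of 1 gene are not independent, and single genes can weigh heavily in these shares. Counted by gene, 7 of 17 cleavage and polyadenylation factors had a retained intron, beside 2813 of 7196 protein-coding genes (39.1%). CPSF1 alone held 15 of the 34 retained introns of these factors. The SR proteins, low by junctions, were not low by gene. Of these, 5 of 12 had a retained intron and 7 of 10 had increased skipping, beside 64.8% of protein-coding genes for skipping.

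The other groups had shares of increased boundaries between 17.5% and 31.9%. Among those of RNA processing, boundaries increased at 36 of 153 (23.5%) in 3′ splice site recognition, 91 of 431 (21.1%) in hnRNPs, 21 of 120 (17.5%) in CLK, SRPK and DYRK kinases, 20 of 63 (31.7%) in U11/U12 proteins and 68 of 292 (23.3%) in nonsense-mediated decay. Skipping increased at 19 of 39, 43 of 107, 11 of 26, 4 of 7 and 31 of 55 junctions of these groups, and at 8 of 23 in SR proteins and 18 of 41 in cleavage and polyadenylation. Among those of growth and division, boundaries increased at 139 of 466 (29.8%) in cyclins, CDKs and CDC25, 139 of 512 (27.1%) in DNA replication, 103 of 323 (31.9%) in homologous recombination and Fanconi genes, 162 of 511 (31.7%) in kinetochore and spindle genes and 119 of 396 (30.1%) in the nuclear pore. Skipping increased at 50 of 89 junctions in DNA replication, 54 of 112 in homologous recombination and Fanconi genes and 40 of 92 in the nuclear pore. Translation initiation factors had 121 of 582 boundaries (20.8%) and 53 of 110 skipping junctions increased, and proteasome subunits 114 of 431 boundaries (26.5%). The BCL2 family and caspases had 27 of 134 (20.1%) and 24 of 55, the MAP kinase cascade 72 of 250 (28.8%) and 35 of 70, and the SWI/SNF complexes 65 of 265 (24.5%) and 19 of 62. Skipping increased at 19 of 57 junctions of complex I and 27 of 63 of the aminoacyl-tRNA synthetases.

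**Figure D5:**
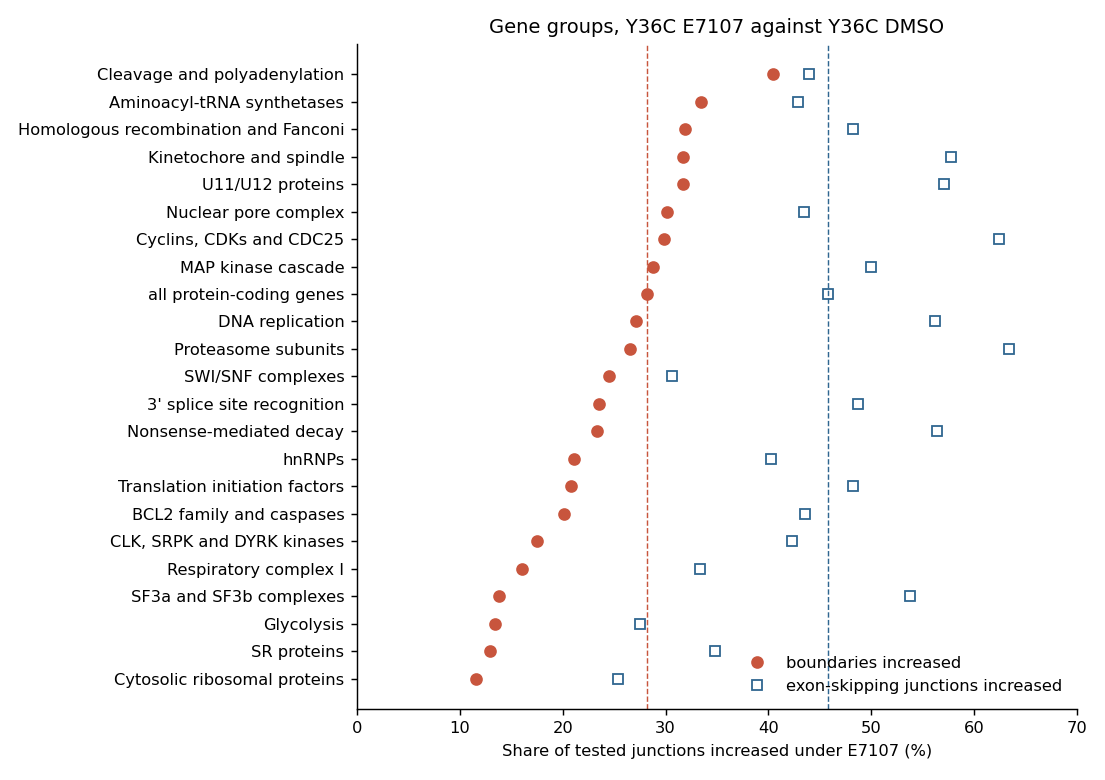
Share (%) of tested boundaries (filled circles) and exon-skipping junctions (open squares) that increased under E7107 in Y36C cells, for 22 gene groups and for all protein-coding genes, whose shares are the dashed lines (28.2% and 45.8%). Ribosomal proteins, SR proteins and glycolysis lie low on both measures, which count junctions and not genes, and proteasome subunits and cyclin and CDK genes lie high on skipping.

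For each gene group, the event with the largest rise among those without overlap and with an SD of at most 5 points was taken, so that larger but more variable rises, such as that of CDC25B, are not among them. In the cell cycle and replication groups, CDK9, the kinase of transcription elongation, retained its 158-base intron 5 with a 5′ boundary PSI of 12.6–20.2% in DMSO and 40.6–50.8% in E7107, below the WT mean of 94.4% under E7107. PLK4, the kinase of centriole duplication, skipped a 103-base exon at 5.56–17% in DMSO and 45.7–53.3% in E7107. MCM4, a subunit of the replicative helicase, retained its first intron (116 bases) at a 5′ boundary PSI of 2.00–3.75% and 16.2–19.2%. FANCA, a Fanconi anaemia protein, skipped a 129-base exon at 25.8–36.3% and 48.6–60.9%, and NUP58, a nucleoporin, a 25-base exon at 0.457–2.13% and 24.0–33.7%.

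In the groups of RNA processing, the cleavage factor subunit CPSF1 retained its 74-base intron 34 of 37 at 28.1–36.6% and 49.6–59.1%, with WT means of 33.2% and 22.5%. HNRNPAB retained its 74-base first intron (81.1% GC) at 17.8–20.6% and 42.0–50.4%. RNPS1, of the exon junction complex, skipped a 142-base exon at 17.2–23.2% and 36.6–48.0%, and SF3A3, of the U2 snRNP, had a skipping junction at 2.59–4.56% and 9.85–14.6%. SRSF10 and RBM23, described above, led the SR proteins and the group of 3′ splice site recognition. The DYRK1A kinase gained a skipping junction from 2.33–11.4% to 21.4–34.8%. No event of the U11/U12 proteins met the rule.

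In translation, protein turnover and metabolism, RPS2 of the small ribosomal subunit used a skipping junction at 18.6–23.9% and 50.2–55.6%, a value that is uncertain because processed copies of the gene exist. EIF3B retained intron 18 of 18 at a 5′ boundary PSI of 7.49–9.69% and 26.6–31.4%. LARS1, the leucyl-tRNA synthetase, skipped a 54-base exon at 0–2.01% and 21.4–25.9%, with a WT mean of 3.36% under E7107. The LARS1 junction entered the test through E7107 alone. ADRM1, a ubiquitin receptor of the proteasome, skipped a 103-base exon at 3.25–4.65% and 33.0–37.7%. NDUFB5 of complex I had a skipping junction at 21.8–29.5% and 43.8–45.2%, and PFKL, liver phosphofructokinase, retained intron 19 of 21 at 5.67–11% and 21.9–27.5%. In the signalling, apoptosis and chromatin groups, HRAS retained intron 5 of 5 at 11.2–15.1% and 35.0–39.0%, BAX retained intron 5 of 5 at 22.0–27.3% and 40.5–51.5%, and the SWI/SNF subunit BCL7B had a skipping junction at 13.2–20.8% and 22.7–33.6%.

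For the named events, the response in Y36C cells was set against that in WT cells with a limma interaction term fitted to the 24 samples. It could be fitted at 81 of the 84 named junction ends and passed at 65, where 43.6% of 319614 ends over the whole table passed. At 50 of the 65 the change in WT cells was smaller than, or opposite to, that in Y36C cells, and at 15 it was larger in the same direction. The estimated change in WT cells had the opposite sign at 21, as in RBM23 and CBLC. All 8 named exon-skipping junctions were among the 50. The 16 boundaries of the 8 retained introns divided into 6 of the 50, 5 of the 15 and 5 that did not pass, and the U12-type boundaries into 4 of the 15 and 4 that did not pass. The events were chosen for their change in Y36C cells, which favours larger effects there.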

How the data were processed

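RNA-seq of HCT116 cells was performed by the authors, who aligned reads to hg19 with STAR (version not given in the sources used here) and calculated PSI from junction counts. The deposited values are percent, 1 table per sample, with 1830076 rows each. No counts were analysed here, so no interval for a single PSI is given. Rows of the mitochondrial chromosome or without a strand (6433) were left out, and a site whose rows sum to 0 was treated as missing. Coordinates were checked against GRCh37, where 97.1% of 32915 introns tested began with GT and ended with AG. Genes came from GENCODE 44 lifted to GRCh37. An exon-skipping junction joins annotated sites of a gene across an annotated internal exon and is no intron of its canonical transcript.

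Rows entered limma 3.58.1 (R 4.3.3) when the site had reads in all 12 samples and PSI was above 0 in all 6 samples of a group (240177 junctions). The empirical Bayes test on log odds compared 6 with 6 samples without covariates, and the end of a junction with the smaller p was kept after Benjamini–Hochberg adjustment over all rows. Per-sample means were compared with exact two-sided permutation tests. The limma test was also run on simulated normal values of log odds with known shifts, which do not copy the bounds and zeros of PSI. Samples were grouped by title, and nothing states that the replicates are separate cultures, so p-values measure the spread between these samples.

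Named events had groups without overlap and an SD of at most 5 points: the 8 retained introns and 8 exon-skipping junctions with the largest rise, 4 unannotated sites of each kind, the 4 introns with the largest fall, 4 U12-type introns, the largest event per gene list, and, with no limit on the SD, genes the study names, of which 1, with 1 sequence, is not reported here. The members, the gene lists and the rule were chosen with earlier results of these data known. Alternatives were other offsets, PSI itself as response, the replicate number as a block, other filters, a mean–variance trend, all 24 samples in the fit, and leaving out each sample.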

Additional observations from a re-analysis of the deposited data

Results flagged for a closer look

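Of 194 groups of 6 samples behind the named events and the per-sample means, 10 held a sample far from the other 5 by Dixon's criterion, where chance gives about 1 in 20. All 10 belonged to named events. In DMSO these were replicate 2 at the ASPSCR1 3′ boundary (4.92%, others 12–15.5%), replicate 4 at the KDM1B site (2.04%, others 0) and replicate 6 at the C11orf80 site (5.56%, others 0). In E7107 they were replicate 3 at the GNG5 5′ boundary (62.7%, others 51.8–55.6%), replicate 2 at the TTLL4 site (12.5%, others 21.6–26.5%), replicate 6 at the KDM1B site (26.7%, others 35.4–40.4%) and replicate 3 at the BAX 5′ boundary (51.5%, others 40.5–44.3%). The rest were replicate 1 at the BAX 3′ boundary (61.0%, others 50–53.9%) and at the MCM4 5′ boundary (16.2%, others 18.2–19.2%), and replicate 2 at the TMEM41B 3′ boundary (32.8%, others 20–24.6%).

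The effect of E7107 differed between genotypes, by the limma interaction term, at 65 named junction ends. The values are the change in log odds in Y36C minus that in WT cells. Among retained introns, 5′ and 3′ boundaries gave 2.33 and 2.16 in ASPSCR1, 1.72 and 1.28 in FASTK, 0.94 and 1.07 in TONSL, -0.78 and -0.46 in YDJC and -0.97 and -1.12 in MED15, and the RECQL4 5′ boundary gave -0.63. Among gene lists they gave 0.83 and 0.87 in HNRNPAB, 0.90 and 1.02 in BAX, -3.02 and -2.89 in CDK9, 1.48 and 1.57 in CPSF1 and 1.57 and 1.34 in PFKL, and the MCM4 3′ boundary gave 0.55. Among introns that decreased they gave -0.73 and -1.05 in ANKRD10, -1.10 and -1.04 in SAT1, -1.25 and -1.51 in PRPF39 and -0.69 and -0.57 in HNRNPDL. Among U12-type introns they gave -2.76 and -2.48 in GNL3, -0.96 at the TMEM41B 5′ boundary and -0.61 at the NOL11 3′ boundary.

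Exon-skipping junctions differed by 3.21 in IMPA1, 1.01 in SLC35F2, 2.99 in ENTPD4, 3.70 in RBM23, 2.36 in CDCA3, 2.04 in ENSG00000271793, 1.90 in C1orf43 and 1.49 in RPP30. Those of the genes the study names differed by -2.42 in MCL1, 2.11 in CDC25B, 2.27 in RBM5 and 1.05 in CDK10, and 3′ boundaries by -4.66 in MCL1, -1.77 in RBM5 and 0.81 in CDK10. Those of the gene lists differed by 0.82 in SF3A3, -2.05 in DYRK1A, 0.86 in RPS2, 0.61 in ADRM1, 0.63 in NDUFB5, 2.54 in LARS1, 1.42 in FANCA, 2.26 in PLK4, 0.69 in NUP58 and 0.76 in RNPS1. Unannotated sites differed by 2.96 in TTLL4, 2.37 in CBLC, 1.39 in BUB1B, 2.65 in AHCYL1, 3.73 in KDM1B and 3.55 in C11orf80.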

How the results depend on the processing

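The alternatives were run for the counts of junctions, introns and genes, the mean boundary and exon-skipping PSI and the named events, and none of these changed direction. They were not run for the intron and exon features, the gene groups or the comparison with WT cells. With rows of a mean PSI of at least 5% only, 347 junctions to unannotated 3′ sites and 258 from unannotated 5′ sites increased, because fewer rows were tested. With a change of at least 10 points also required, boundaries gave 11028 increased and 427 decreased, exon-skipping junctions 3008 and 347, annotated non-skipping junctions 945 and 15386, unannotated 3′ sites 92 and 87 and unannotated 5′ sites 80 and 78, and 3427 introns increased at both boundaries, with 1549 genes for retention and 2177 for skipping. All other counts, under the offsets, response scales, filters, trend and sample sets listed in the methods, stayed within 1.5 times the reported one. Leaving out 1 sample at a time gave 21015 to 22330 increased boundaries, 8172 to 8688 increased exon-skipping junctions and 6512 to 6855 introns. With the replicate number as a block, 18614 boundaries, 7424 exon-skipping junctions and 5508 introns increased, and the differences of 2.22 points in mean boundary PSI and 1.23 in mean exon-skipping PSI gave an exact sign-flip p of 0.03125, the smallest possible. Over all junctions, the deviations of same-numbered samples from their group means had correlations from -0.00395 to 0.00452, under the 0.1 set for a pairing. Such a correlation cannot show a shift that all junctions of a sample share. Sample means of boundary PSI did differ between numbers 1 to 3 and 4 to 6 in DMSO. Of the 84 named junction ends, the MCL1 3′ boundary lost its call with the block (limma adjusted p = 0.0844). The cause was not tested. Read depth per site is unknown, so a PSI of 0 sets no limit.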

Other observations

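Samples numbered 1 to 3 and 4 to 6 differed slightly in mean boundary PSI, a split chosen after seeing the data, and the labels do not say what the numbers mark. In DMSO the ranges were 8.06–8.11% and 7.80–7.95%, and in E7107 10.13–10.39% and 10.06–10.20%. The difference between E7107 and DMSO was 2.19 points in the first and 2.24 points in the second set, for exon skipping 1.26 and 1.21 points, for U12-type introns 4.61 and 4.78 points and for the highest GC quintile 5.22 and 5.41 points.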
